A study of Mus musculus with 12 samples.

Results

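Naive CD8+ T cells that received no anti-CD3 were compared with and without ligation of LAIR-1, to ask whether the antibody changes their transcripts and how small a change the libraries would leave unseen. Of the 12 libraries in the series, the 6 labelled unstimulated were used: 3 with isotype control and 3 with anti-LAIR-1, each library from 1 of 3 wild type mice, and each mouse giving both. The cells were sorted from spleen by surface markers of naive CD8+ T cells, CD44- among them, and 100000 of them were cultured for 6 h in a well coated with antibody. Wells of the unstimulated anti-LAIR-1 group held 2.5 µg/ml of the agonistic antibody 2C7, and wells of the unstimulated isotype group held isotype control in its place. The column labels, iso_iso and iso_2C7, can be read as a further isotype control in place of anti-CD3, which the study's methods do not describe. No well of these groups held anti-CD3. The study's methods describe its mice as adult C57BL/6N animals, and the sex of these 3 mice is not given in the sources used here. All 14323 gene symbols of the deposited table were taken, and 8770 had enough counts to be tested.

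LAIR-1 is an inhibitory receptor of leukocytes that binds collagen. Its cytoplasmic tail carries immunoreceptor tyrosine-based inhibitory motifs (ITIMs), which recruit the phosphatases SHP-1 and SHP-2 and the kinase Csk and thereby dampen signals from activating receptors. Naive CD8+ T cells are quiescent: factors such as KLF2, FOXO1 and LEF1 maintain their programme, S1PR1 guides their egress from lymph nodes, and their genes for cytokines and granzymes are almost silent until the antigen receptor is engaged.

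Isotype libraries held 1781218 to 2957929 counts and anti-LAIR-1 libraries 3547294 to 3589194, so that every isotype library was shallower than every anti-LAIR-1 library and depth and antibody cannot be told apart by the design. At these depths 3 counts were 1.01 to 1.68 CPM (counts scaled to a common library total) with isotype and 0.836 to 0.846 CPM with anti-LAIR-1. The 7 naive T cell markers together reached 4660 to 5070 CPM with isotype and 4770 to 5140 CPM with anti-LAIR-1, and the 5 of 8 CD8 T cell markers present in the table reached 2600 to 3050 and 2720 to 2920 CPM. Memory or effector CD8 T cell markers (10 present, led by Il2rb, with Cx3cr1 and Fasl at 0) summed to 176 to 180 CPM with isotype and 159 to 181 CPM with anti-LAIR-1. Markers of B cells summed to at most 29 CPM and those of NK cells to at most 0.69 CPM, and the CD4 T cell list (of which Ikzf2 was the highest gene) to 22.8 to 46 CPM with isotype and 34.5 to 54.3 CPM with anti-LAIR-1. Myeloid markers, led by Cst3, summed to 52.2 to 67.3 and 55.9 to 65.7 CPM, with Cd14 and Tyrobp at 0. Red cell markers, nearly all from Beta-s, summed to 0 to 99.9 CPM with isotype and 2.59 to 176 CPM with anti-LAIR-1. Platelet markers summed to 0 to 1.38 and 2.23 to 5.52 CPM, from few counts, and 0 of the 3 present were tested. No marker of any list was called, as no gene was. At an unadjusted p-value under 0.05 in edgeR, Il7r, Ikzf2, H2-Eb1 and Beta-s were higher with anti-LAIR-1 and Eomes was lower. H2-Eb1, of the B cell list, had 0, 9 and 0 counts with isotype and 5, 15 and 20 with anti-LAIR-1.

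No gene passed the test. With edgeR's quasi-likelihood test, the mouse as a block and Benjamini-Hochberg adjustment, 0 of 8770 genes (0%) differed between anti-LAIR-1 and isotype at an adjusted p-value under 0.05. Without the block the count was also 0. At an unadjusted p-value under 0.05 there were 463 genes (5.28%), of which 222 (2.53%) were higher and 241 (2.75%) lower with anti-LAIR-1. Without the block there were 384 (4.38%), and DESeq2 gave 69 such genes with the block and 213 without. The CPM values of both groups did not overlap for 843 genes (9.61%), and 2318 genes (26.4%) differed in the same direction in all 3 mice. The median log2 fold change over all genes tested was -0.0008, 0.0012 and 0.0002 in mice 1, 2 and 3. Counts were scaled to library size, so a change in total RNA that all genes shared would not be seen in any of these values.

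How small a change remained possible was read from each gene's 95% interval, given here as its far end, the larger of the fold changes up or down that the interval still holds. The spread behind each interval was borrowed largely from other genes, so an interval can be narrower than the disagreement of the mice. The interval of 7425 genes (84.7%) lay wholly within 2-fold and that of 4881 genes (55.7%) within 1.5-fold. A test of equivalence, which asks for each gene whether a change of the margin or more can be set aside and adjusts over all genes, passed for 7783 genes (88.7%) at 2-fold and for 5030 genes (57.4%) at 1.5-fold, which left 987 genes without a 2-fold statement. The median margin of error (the distance from the estimate to either end of its interval) was 0.391 on the log2 scale, or 1.31-fold. The variation between replicates that was left after sampling error and the mouse was 9.59% (biological coefficient of variation), and 11% without the block.

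The precision followed the expression level, as the plot of interval ends by count class shows. Of the 113 genes above a mean of 3000 counts per library, 95% had an interval whose far end was under 1.26-fold, and of the 202 genes from 1000 to 3000 counts under 1.27-fold. For the 1017 genes from 300 to 1000 counts this value was 1.36-fold, for the 2303 genes from 100 to 300 counts 1.52-fold, and for the 3220 genes from 30 to 100 counts 1.98-fold. Below this level larger changes fitted inside the intervals. The value was 3.24-fold for the 1770 genes from 10 to 30 counts and 4.92-fold for the 145 tested genes under 10 counts.

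**Figure D1:**
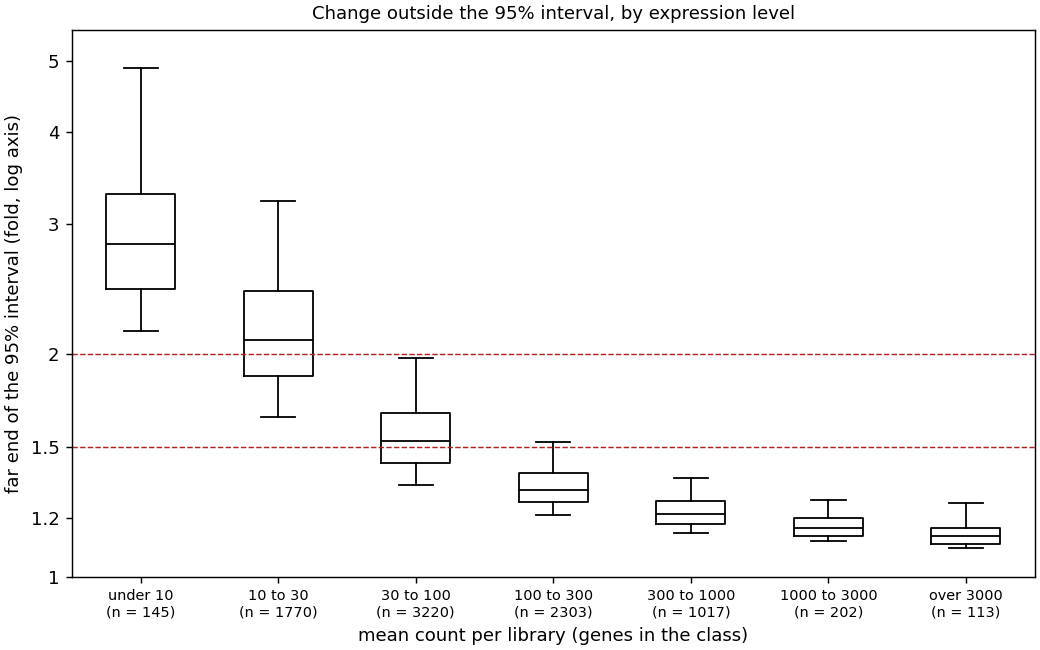
Far end of the 95% interval of the anti-LAIR-1 effect in unstimulated cells (vertical log axis, fold) for genes grouped by mean count per library (horizontal axis, number of genes under each class). Boxes span the quartiles with the median as a line, whiskers span 5% to 95% of genes, and dashed lines mark 1.5-fold and 2-fold; the 95% whisker falls from 4.92-fold under 10 counts to 1.26-fold over 3000 counts.

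Typical genes of each class give the same picture in single values. Rps24, a ribosomal protein of the small subunit, read 1917, 1859 and 1851 CPM with isotype and 1917, 1936 and 1789 CPM with anti-LAIR-1 in mice 1, 2 and 3. Its groups overlapped, and its log2 fold change was 0.00 (95% interval -0.12 to 0.13). Ahcy, which hydrolyses S-adenosylhomocysteine, read 50.9, 43.5 and 45.03 CPM against 51.2, 46.5 and 53.1 CPM, with a log2 fold change of 0.11 (-0.19 to 0.40). Here too the groups overlapped, and the interval was wider by more than the change itself. Tfeb, a transcription factor of lysosomal genes, read 3.81, 8.10 and 6.76 CPM against 5.20, 6.92 and 5.03 CPM. The mice spread over more than the groups differed, and the interval of its log2 fold change of -0.08 ran from -0.88 to 0.71.

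Of the 1332 genes with a mean of at least 300 counts per library, all had an interval within 2-fold and 1325 within 1.5-fold. The 7 exceptions were named after their values were seen: mt-Rnr2, Glg1, Tnrc6b and Dnajc9 with positive estimates, and Ppp1r9b, Usmg5 and Vmn2r55 with negative ones, none called and with far ends of at most 1.75-fold (Glg1). Between 100 and 300 counts only Beta-s and Gm10785 had an interval that reached beyond 2-fold. From 30 to 100 counts 3076 genes (95.5%) lay within 2-fold and 1406 (43.7%) within 1.5-fold, and from 10 to 30 counts 716 (40.5%) and 0. These shares depended on the fit, mostly for the less abundant genes. Over 3000 counts, a robust estimate of the prior spread left 97.3% within 2-fold and 94.7% within 1.5-fold, against 100% and 99.1%. With DESeq2 and the block, 76.9% of the genes from 30 to 100 counts lay within 2-fold and 4.29% within 1.5-fold, and from 10 to 30 counts 3.05% lay within 2-fold, whereas from 300 to 1000 counts 99.9% still lay within 2-fold and 97.5% within 1.5-fold.

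An interval and a call are different limits, since a call also pays for the number of genes tested. At the median standard error a gene needed a 2.16-fold change to be the first to pass the adjusted threshold, at the median of its class 1.28-fold above 3000 counts, 1.79-fold from 100 to 300 counts and 4.80-fold from 10 to 30 counts. In the median gene, counting error made up 57.1% of the variance of the estimate from 10 to 30 counts, 46.2% from 100 to 300 counts and 4.91% above 3000 counts. The share that counting contributed to the width of an interval thus shrank with expression, and the remainder was spread between replicates.

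**Figure D2:**
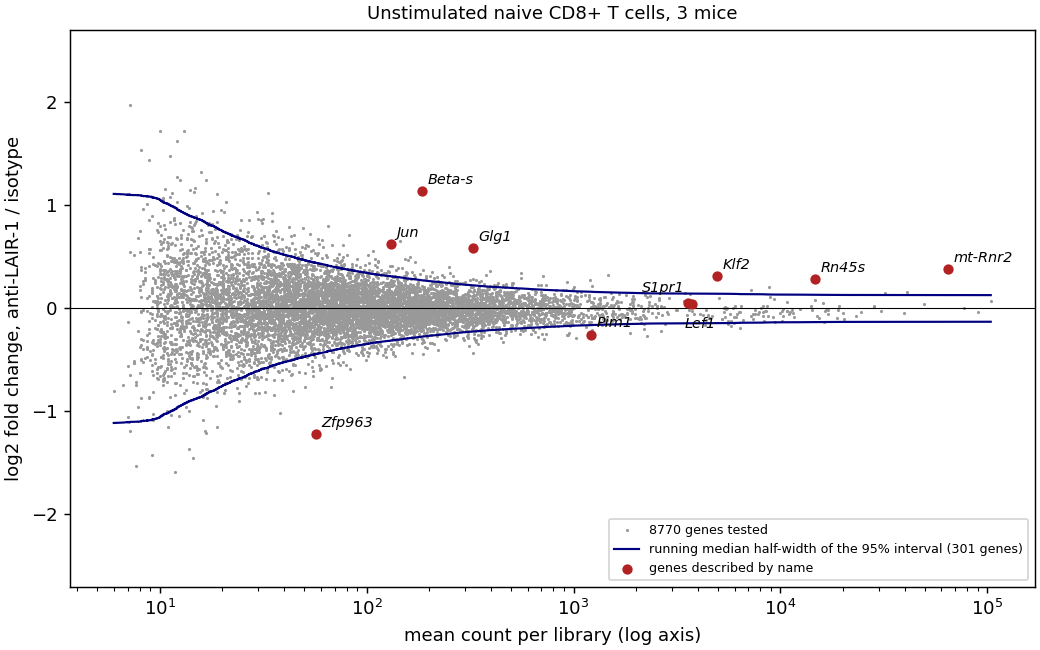
Log2 fold change of anti-LAIR-1 over isotype without anti-CD3 (vertical axis) against mean count per library (horizontal log axis) for the 8770 genes tested (grey). Blue lines are the running median margin of error of the 95% interval, and red points are genes described by name; Beta-s (1.14), Glg1 (0.59) and Zfp963 (-1.22) lie outside the lines, and Lef1 (0.04) and S1pr1 (0.05) lie inside.

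The genes nearest to a call were few. Beta-s, a beta chain of adult haemoglobin and a transcript of red cells (chromosome 7), had the smallest p-value. It read 0, 98.9 and 18.0 CPM with isotype and 2.60, 176 and 55.6 CPM with anti-LAIR-1, a log2 fold change of 1.14 ± 0.20 (SE, n = 3 mice) with an adjusted p = 0.0701 in edgeR. Each mouse was higher with the antibody, but the mice differed from each other far more than the groups, which overlapped. In bulk samples more red cells and more of this RNA per cell cannot be told apart, and what part the red cell RNA of a well had in other genes was not tested.

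Glg1, which encodes a membrane protein of the Golgi (mm10 chr8:111154421-111259216), read 87.9, 78.9 and 86.7 CPM with isotype and 122, 119 and 141 CPM with anti-LAIR-1. Every anti-LAIR-1 library was above every isotype library. The log2 fold change was 0.59 ± 0.11 (SE of the fit, n = 3 mice), with an adjusted p = 0.0812 in edgeR. Rn45s, the precursor of ribosomal RNA, read 5569, 3069 and 4568 CPM against 7147, 3929 and 5041 CPM, a log2 fold change of 0.29 (0.17 to 0.41; edgeR adjusted p = 0.141). It was higher with anti-LAIR-1 within each mouse, while the groups overlapped.

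Jun, an AP-1 subunit (chr4:95049034-95052222), read 37.0, 29.0 and 34.9 CPM with isotype and 51.7, 54.3 and 48.9 CPM with anti-LAIR-1. The groups did not overlap, and its log2 fold change of 0.62 (0.30 to 0.94) had an adjusted p = 0.687 in edgeR. Dhx57, a putative RNA helicase, had a log2 fold change of 0.66 (0.35 to 0.97; edgeR adjusted p = 0.333). Among estimates below 0, Zfp963, a zinc finger gene (chr8:69741639-69749970), read 27.7, 32.8 and 25.3 CPM with isotype and 9.83, 23.5 and 5.86 CPM with anti-LAIR-1. All anti-LAIR-1 libraries were below all isotype libraries, least so in mouse 2, and the log2 fold change of -1.22 (-1.73 to -0.70) had an adjusted p = 0.141 in edgeR. Next came Bud13, a splicing factor (-1.02, -1.54 to -0.49), Ppp1r9b, which targets a phosphatase to actin (-0.43, -0.66 to -0.19), Nme2, a nucleoside diphosphate kinase (-0.26, -0.41 to -0.12), and 9430016H08Rik (-0.68, -1.07 to -0.29), all with adjusted p-values of 0.687 or more.

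**Figure D3:**
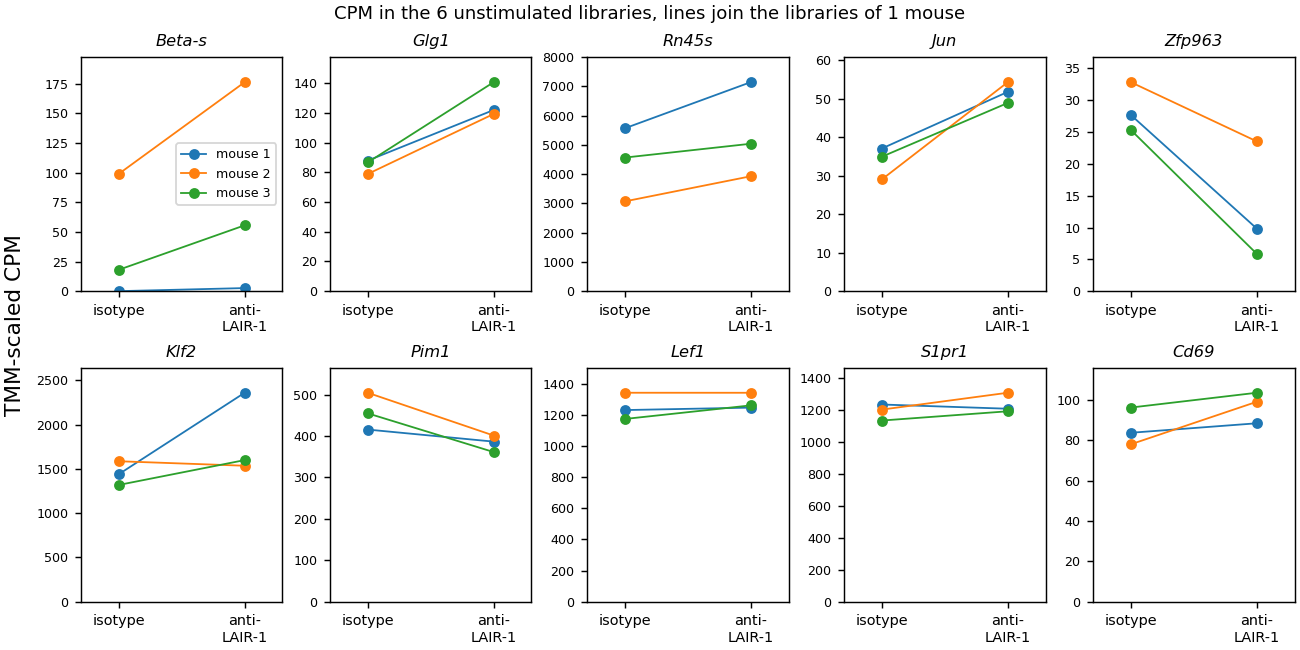
TMM-scaled CPM (vertical axes from 0) of 10 genes in the 6 unstimulated libraries, isotype on the left and anti-LAIR-1 on the right of each panel, with lines joining the libraries of 1 mouse. Glg1, Jun, Zfp963 and Pim1 show groups that do not overlap, Klf2 is highest in the anti-LAIR-1 library of mouse 1 (2360 CPM), and Lef1, S1pr1 and Cd69 overlap.

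The 0 calls were near the threshold for a few of these genes, and some settings crossed it. With a robust estimate of the prior spread, and without mitochondrially encoded genes, Beta-s, Glg1 and Rn45s were called. Leaving out mouse 1, 2 or 3 gave 15, 13 and 10 calls in fits that rest on 2 mice. Over 24 alternatives 31 genes were called at least once, 21 of them in 1 alternative only, and 6 in at least 3 (Beta-s in 7, Glg1 and Rn45s in 5 each, Zfp963 in 4, Klf2 and Malat1 in 3 each). With every library thinned to the smallest total, Beta-s alone was called.

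Lair1 itself was too low to test. Its counts were 6, 6 and 0 with isotype and 2, 4 and 3 with anti-LAIR-1, 12 against 9 in all. The groups overlapped, and the ratio of its rates (anti-LAIR-1 over isotype), 0.494, had an exact 95% counting interval from 0.184 to 1.28. The other 11 genes of LAIR-1 and ITIM signalling were tested, 0 were called, and 10 had intervals within 2-fold. Ptpn6, which encodes SHP-1, read 183, 189 and 222 CPM with isotype and 207, 212 and 227 CPM with anti-LAIR-1. The groups overlapped, with a log2 fold change of 0.13 (-0.06 to 0.31). Ptpn11 (SHP-2) had a log2 fold change of 0.02 (-0.28 to 0.32), Csk, the kinase that keeps Lck inactive, of -0.13 (-0.30 to 0.05), and Ptpn22, a phosphatase that acts on Lck, of 0.18 (0.01 to 0.35, unadjusted p = 0.0354). The gene left with the widest range was Dok1, an adaptor (far end 2.04-fold).

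The antigen receptor and its proximal kinases were among the best measured groups. All 24 tested genes had intervals within 2-fold and 22 within 1.5-fold, and the group's median log2 fold change was 0.005, beside -0.0004 for all genes. Lck, the kinase that starts receptor signalling, read 810, 901 and 877 CPM with isotype and 820, 902 and 881 CPM with anti-LAIR-1. The libraries of each mouse were nearly identical and the interval ran from -0.13 to 0.15. Cd3g, a chain of the receptor complex, had a log2 fold change of -0.03 (-0.18 to 0.13).

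Genes of the naive state had equally narrow limits, 24 of 24 within 2-fold and 23 within 1.5-fold, around a median of 0.050 (0.014, 0.031 and 0.095 in mice 1, 2 and 3). Lef1, a transcription factor of naive T cells, read 1230, 1341 and 1172 CPM with isotype and 1245, 1341 and 1260 CPM with anti-LAIR-1. Its groups overlapped and the interval of -0.09 to 0.17 held no change beyond 1.13-fold. Foxo1, which drives Klf2 and Il7r, had a log2 fold change of -0.06 (-0.24 to 0.13), and Il7r, the receptor for the survival cytokine IL-7, of 0.16 (0.00 to 0.33). Klf2, the quiescence factor that drives S1pr1, read 1440, 1587 and 1319 CPM with isotype and 2360, 1536 and 1600 CPM with anti-LAIR-1. The value of mouse 1 stood above the other libraries, mouse 2 was slightly lower with the antibody, and the log2 fold change was 0.32 (0.13 to 0.50; edgeR adjusted p = 0.811). The log2 differences of 0.71, -0.05 and 0.28 within mice 1, 2 and 3 spread beyond this interval.

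Adhesion and migration genes (38 tested) had 37 intervals within 2-fold and 36 within 1.5-fold, and a median of 0.022. S1pr1, the receptor for egress from lymphoid tissue, read 1233, 1201 and 1133 CPM with isotype and 1206, 1306 and 1190 CPM with anti-LAIR-1, a log2 fold change of 0.05 (-0.08 to 0.19). Pecam1, an adhesion receptor with ITIMs of its own, read 114, 141 and 165 CPM against 141, 168 and 144 CPM, with 0.12 (-0.10 to 0.35). The groups overlapped for both genes. The only gene of this group with an interval beyond 2-fold was Cd44, at a mean of 14.3 counts.

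Activation genes were measured less tightly. Of 29 tested members 26 had intervals within 2-fold and 18 within 1.5-fold, and the median was 0.009. Cd69, the early activation marker, read 83.8, 78.0 and 96.3 CPM with isotype and 88.5, 99.1 and 104 CPM with anti-LAIR-1. It was higher with the antibody in each mouse, the groups overlapped, and the log2 fold change was 0.18 (-0.06 to 0.41). Il2ra, which encodes CD25, had 24, 25 and 17 counts against 35, 34 and 31 counts in the deeper anti-LAIR-1 libraries. Scaled to depth this was a log2 fold change of -0.01 with an interval from -0.62 to 0.60, so that changes up to 1.53-fold fitted. Pim1, a kinase induced by cytokines and antigen, read 416, 504 and 455 CPM against 387, 401 and 361 CPM. Its groups did not overlap, and the log2 fold change of -0.26 (-0.42 to -0.09) had an adjusted p = 0.811 in edgeR. Ybx1 (-0.07, -0.21 to 0.08) and Lyar (0.01, -0.30 to 0.32), both nucleic acid binding proteins of growing cells, had intervals around 0.

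The early response factors, transcribed within minutes of receptor engagement, had a median of 0.054 over 17 tested genes (0.045, 0.091 and 0.051 in mice 1, 2 and 3), with 16 intervals within 2-fold and 8 within 1.5-fold. Jun was the single member at an unadjusted p-value under 0.05. The related Junb (-0.16, -0.38 to 0.06) and Jund (-0.09, -0.26 to 0.07) had estimates below 0. Egr1 had a log2 fold change of 0.24 (-0.19 to 0.67) and Nr4a1, which reports antigen receptor signalling, of 0.06 (-0.25 to 0.38).

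Effector genes, scarce in resting cells, had wide limits. Of the 18 effector cytokine and granule genes present, 9 were tested, and 6 had intervals within 2-fold and 1 within 1.5-fold. The median of 0.147 was made of 0.321, -0.064 and 0.361 in mice 1, 2 and 3, so mouse 2 differed in sign. Without the anti-LAIR-1 library of mouse 2 (and without the block) the median was 0.019, without the isotype library of mouse 2 it was 0.280, and with no filter on low counts, where more members enter, it was 0.407. Xcl1, a chemokine for cross-presenting dendritic cells, read 72.0, 74.2 and 65.3 CPM against 108, 73.9 and 100.5 CPM. It was higher in mice 1 and 3 and level in mouse 2, with a log2 fold change of 0.40 (0.13 to 0.67; edgeR adjusted p = 0.828). Ccl4 (0.56, 0.05 to 1.07) and Ccl3 (0.62, -0.16 to 1.40), inflammatory chemokines at means of 54 and 22.7 counts, also had estimates above 0, and Eomes, a factor of memory cells, had -0.42 (-0.77 to -0.08). Gzmb, a granule protease, had 1, 0 and 0 counts against 4, 1 and 1, and the ratio of its rates, 3.95, had an exact 95% counting interval from 0.480 to 182. Ifng had 0, 0 and 0 counts against 1, 0 and 1, under the floor of 3 counts in every library, and Lif, Gzmc and Fasl had 0 counts in all 6 libraries.

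**Figure D4:**
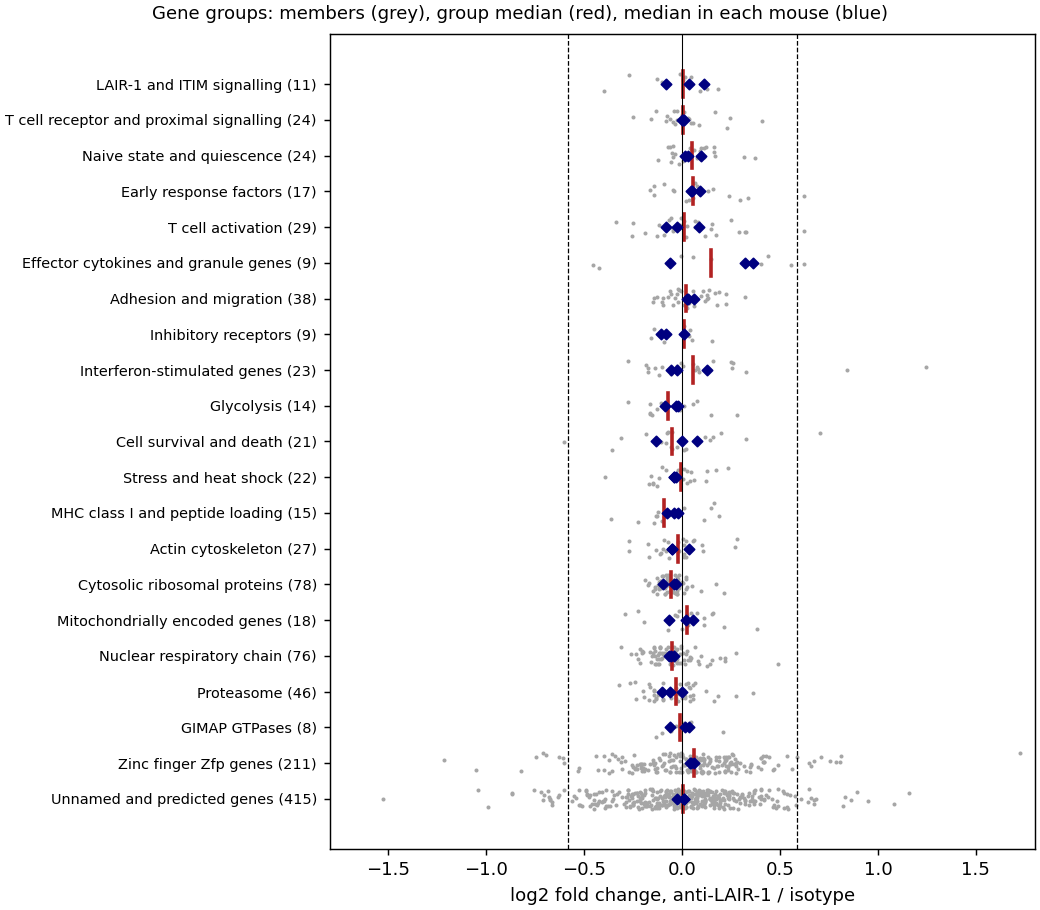
Log2 fold change of anti-LAIR-1 over isotype without anti-CD3 (horizontal axis) for the members of 21 gene groups (vertical axis, genes tested in parentheses). Grey points are genes, red bars group medians, blue diamonds the median in each of 3 mice and dashed lines 1.5-fold; group medians run from -0.09 (MHC class I and peptide loading) to 0.15 (effector cytokines and granule genes).

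Inhibitory receptors other than LAIR-1 were only partly measured. Of the 16 present, 9 were tested, 8 within 2-fold and 7 within 1.5-fold, and none at an unadjusted p-value under 0.05. Tgfbr2, a TGF-beta receptor chain, had a log2 fold change of 0.05 (-0.15 to 0.25), Cd5, which tunes antigen receptor signals, of 0.03 (-0.19 to 0.26), and Ctla4 of 0.15 at low counts. Lag3 had 1, 0 and 0 counts with isotype and 2, 3 and 5 with anti-LAIR-1. The ratio of its rates was 6.59 with an exact 95% counting interval from 0.938 to 286, and the values lay mostly within the 3 counts that a count of 0 allows.

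Cytosolic ribosomal protein genes had the smallest median margin of error of the 21 groups, 0.126 on the log2 scale. Of 78 cytosolic ribosomal protein genes 75 had intervals within 1.5-fold, 10 had estimates above 0 and 68 below, and the median was -0.056 (-0.096, -0.041 and -0.032 in mice 1, 2 and 3). No member was called, and 4 (5.13%) had an unadjusted p-value under 0.05, beside 5.28% of all genes. The extremes were Rpl38 at -0.19 and Rpl37a at 0.21. These genes have near-identical processed copies, and reads that mapped equally well to several places had been discarded, so their single values are uncertain. Of 76 nuclear respiratory chain genes 72 lay within 1.5-fold, with 55 estimates below 0, a median of -0.054 (-0.065, -0.042 and -0.057 in the 3 mice) and 4 members (5.26%) at an unadjusted p-value under 0.05. Atp5h, a subunit of ATP synthase, read 939, 1117 and 898 CPM against 879, 826 and 830 CPM. Its groups did not overlap, and the log2 fold change was -0.22 (-0.37 to -0.06; edgeR adjusted p = 0.888).

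Proteasome subunits (46 tested, 41 within 1.5-fold) had a median of -0.030, and MHC class I and peptide loading genes (15 tested, 13 within 1.5-fold) one of -0.093, although H2-D1, a class I heavy chain, had an estimate of 0.15 (0.02 to 0.28). B2m, the light chain shared by all class I molecules, was at -0.01 (-0.12 to 0.10). Over this fit and 24 alternatives the median ran from -0.075 to -0.028 for the ribosomal protein genes and from -0.085 to -0.043 for the respiratory chain genes, while that of all genes ran from -0.0059 to 0.012. The median of the proteasome ran from -0.097 to -0.0012, the latter without the isotype library of mouse 1, and that of the MHC class I genes from -0.097 to -0.0030, the latter without the isotype library of mouse 3. These members share libraries and mice and are not replicates, and no test was made of a group.

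Mitochondrially encoded transcripts took 17.6% to 19.7% of counts with isotype and 19.2% to 20.9% with anti-LAIR-1. Of 18 tested genes 15 had intervals within 2-fold and 13 within 1.5-fold, the exceptions at 2-fold being mt-Tt, mtNd6 and mt-Tw, and the median was 0.027 (0.054, 0.020 and -0.068 in mice 1, 2 and 3). Among the 5 narrowest intervals of all genes were those of mtCytb, mtAtp6 and mtCo2, which encode subunits of the respiratory chain and ATP synthase, and of the ribosomal protein gene Rps6. mtCo2 read 26139, 25199 and 27297 CPM with isotype and 26790, 25201 and 26603 CPM with anti-LAIR-1. The groups overlapped and the interval of -0.09 to 0.09 held no change beyond 1.07-fold. The mitochondrial ribosomal RNA mt-Rnr2 varied more, at 18490, 14174 and 23596 CPM against 29755, 23563 and 19502 CPM. It was higher with the antibody in mice 1 and 2 and lower in mouse 3, with a log2 fold change of 0.38 (0.16 to 0.61; edgeR adjusted p = 0.811). Without mouse 3, in a fit that rests on 2 mice, edgeR called mt-Rnr2 with a log2 fold change of 0.71 (adjusted p = 2.06e-45). With no filter on low counts edgeR also called it (0.39, 0.31 to 0.47, adjusted p = 3.49e-17), from the same counts of the same 3 mice. That call came with a smaller variance in the fit and not with a larger change, and mouse 3 still went the other way. Neither p-value therefore measures agreement between the mice. The same holds for the interval of 0.16 to 0.61. The log2 differences within mice 1, 2 and 3, at 0.69, 0.73 and -0.27, all lay outside it.

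Of the other metabolic and stress groups, glycolysis (14 tested) had all intervals within 2-fold and 10 within 1.5-fold around a median of -0.070 (0.026 in thinned libraries), with Pkm, which makes pyruvate, lowest at -0.28. Stress and heat shock genes (22 tested, 19 within 1.5-fold) had a median of -0.007, and Hsp90ab1, a cytosolic chaperone, an estimate of 0.02 (-0.10 to 0.15). Survival and death genes (21 tested, 17 within 2-fold, 14 within 1.5-fold) had a median of -0.053, made of 0.074, -0.002 and -0.131 in mice 1, 2 and 3. It was 0.057 without mouse 3 and, in fits without the block, 0.053 without the isotype library of mouse 3 and 0.009 without the anti-LAIR-1 library of mouse 2. Mcl1, which protects resting T cells, had an estimate of 0.02 (-0.14 to 0.19). The GIMAP GTPases, needed for the survival of naive T cells, were all within 2-fold and 7 of 8 within 1.5-fold around a median of -0.011. Actin cytoskeleton genes (27 tested, 24 within 1.5-fold) had a median of -0.020, and Actb one of the more precise estimates at -0.10 (-0.22 to 0.02).

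Interferon-stimulated genes left more room, with 18 of 23 intervals within 2-fold and 14 within 1.5-fold. Their median of 0.057 was made of -0.056, 0.128 and -0.024 in mice 1, 2 and 3, and it ran from -0.076 (thinned libraries) to 0.103 (without mouse 1) over 24 alternatives, and was also below 0 without the anti-LAIR-1 library of mouse 1 (-0.020) or mouse 2 (-0.059). Rtp4, one of the genes with an unadjusted p-value under 0.05, read 5.54, 2.56 and 0.563 CPM with isotype and 5.78, 8.58 and 7.26 CPM with anti-LAIR-1. The groups did not overlap, mouse 1 was nearly level, and the log2 fold change was 1.25 (0.22 to 2.27; edgeR adjusted p = 0.893). Zinc finger Zfp genes, many of them transcriptional repressors of low abundance, had 154 of 211 intervals within 2-fold and 70 within 1.5-fold. Their median was 0.062 (0.044, 0.042 and 0.061 in mice 1, 2 and 3), with 126 estimates above 0, and it ran from 0.034 to 0.085 over this fit and 24 alternatives. Unnamed and predicted genes (415 tested) had 277 intervals within 2-fold and a median of 0.007.

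The 5553 symbols with too few counts have no fitted interval, and 1064 of them had 0 counts in all 6 libraries. Together they held at most 0.318% of the counts of a library. Of these genes 5 had at least 10 counts over the anti-LAIR-1 libraries and 0 with isotype, named after their counts were seen: Ppbp (5, 13 and 0 counts in mice 1, 2 and 3), a platelet chemokine, Ccr4 (0, 2 and 10), Mtmr11 (3, 7 and 2), Prr5l (2, 4 and 6) and Il15ra (5, 4 and 1). The reverse held for 6 genes, of which Efna2 (9, 3 and 1 counts), Fscn1 (4, 5 and 1 counts) and Gpr35 (2, 4 and 4 counts) had counts in every isotype library. In the shallower isotype libraries a count of 0 allowed up to 3 counts each.

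The genes called for anti-LAIR-1 in cells that also received anti-CD3 were then looked up in the unstimulated libraries. In the 6 stimulated libraries, of the same mice but other wells, 549 of 8800 genes (6.24%) were called with the block, and 519 of them were tested without anti-CD3. None was called there. Their median log2 fold change without anti-CD3 was 0.016 for the 368 genes higher in stimulated cells, where the median was 0.69, and -0.006 for the 151 lower genes, where it was -0.42. For 360 of the 368 (97.8%) and for 99 of the 151 (65.6%) the stimulated estimate lay outside the unstimulated 95% interval, 459 of 519 (88.4%) in all. For 318 (61.3%) an effect of 50% of the stimulated estimate on the log2 scale lay outside as well. These shares leave out the error of the stimulated estimate, which the interaction test below takes in. The same shares over all genes tested were not computed.

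S1pr1 shows the contrast at high precision. Its interval without anti-CD3 ended at 0.19, and its stimulated log2 fold change was 1.99 ± 0.16 (SE of the fit, n = 3 mice). The same held for Lef1, with 0.68 when stimulated against an upper end of 0.17, and for Pecam1, with 1.01 against 0.35. Among genes lower in stimulated cells Cish, a feedback inhibitor of cytokine receptors, fell by 1.74 with anti-CD3 and had 0.15 (-0.65 to 0.95) without it, and Igfbp4 fell by 1.93 and had -0.06 (-0.57 to 0.44). Both lay outside despite their low counts, whereas Eomes had the same estimate, -0.42, in both states. The difference itself, the interaction of both antibodies over all 12 libraries, was called by edgeR for 199 of these 519 genes and for 218 of 9223 genes (2.36%) in all, 193 of them more positive with anti-CD3.

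**Figure D5:**
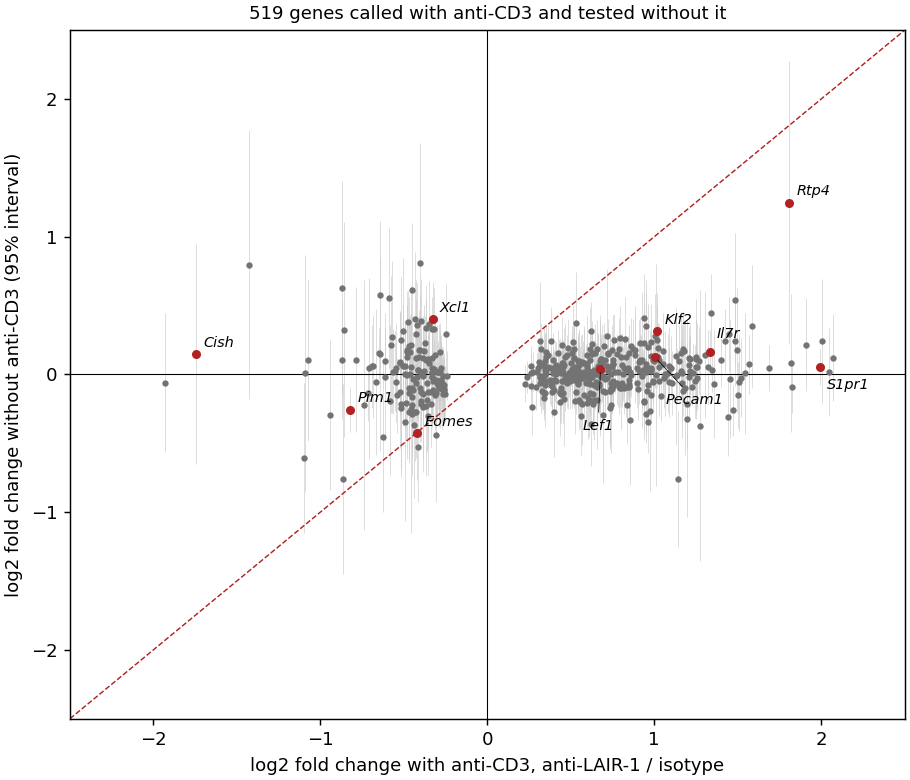
Log2 fold change of anti-LAIR-1 over isotype without anti-CD3 (vertical axis, bars are 95% intervals) against the same with anti-CD3 (horizontal axis) for the 519 genes called with anti-CD3 and tested without it. The dashed line marks equal effects; most points lie along 0 on the vertical axis, and Rtp4 (1.81 and 1.25) and Eomes (-0.42 in both) lie near the line.

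Effects of genes chosen for passing a test are overstated in the libraries that chose them. When genes were chosen in 2 mice and their stimulated effect was read in the mouse left out, 79.2%, 79.7% and 75.2% of the stimulated effects lay outside the unstimulated intervals. The value of a single mouse has an error of its own, which can place it outside without a difference between the states. These shares are therefore no test of such a difference. Along the called direction the median log2 effect was then 0.51, 0.56 and 0.52 with anti-CD3 and 0.018, 0.008 and 0.017 without it. Of the 519 genes 439 (84.6%) had an unstimulated interval within 1.5-fold and 502 (96.7%) within 2-fold. The lower genes were less abundant in resting cells, with a median of 115 counts per library against 423 for the higher genes.

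For 52 of the 519 genes (10%) the unstimulated interval lay off 0, beside 5.23% of all genes tested and 8.41% of those with a mean of at least 300 counts per library. The estimate lay in the same direction as with anti-CD3 for 29 of the 52, among them Klf2, Il7r, Rtp4, Samd9l, Pim1 and Eomes. For the other 23 the direction was opposite, as in Xcl1 and Ccl4 (lower with anti-CD3) and in Malat1 and mt-Rnr2. Samd9l, an interferon-induced gene, read 49.5, 55.0 and 37.7 CPM with isotype and 67.9, 68.4 and 57.5 CPM with anti-LAIR-1 in unstimulated cells. Its groups did not overlap, with a log2 fold change of 0.45 (0.17 to 0.73; edgeR adjusted p = 0.811) beside 1.34 with anti-CD3. None of these 52 genes passed the adjusted threshold without anti-CD3.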

How the data were processed

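RNA of sorted naive CD8+ T cells was sequenced after 6 h. The authors ran an adapted CEL-seq protocol on an Illumina NextSeq, aligned read 2 to the mm10 transcriptome with BWA MEM, dropped reads mapping equally well to several places and counted the rest with MapAndGo. The deposited values are raw counts per gene symbol. Collapsing of molecular identifiers is not given in the sources used here, so counting intervals and floors cover counting error only.

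Groups came from the labels. Testing used edgeR 4.0.16 under R 4.3.3 with filterByExpr (minimum count 10), TMM, the quasi-likelihood F-test with the mouse as a block, and Benjamini-Hochberg adjustment at 0.05. The pairing comes from the labels, which give the mouse of each library. Deviations from the group means correlated between libraries of 1 mouse with r of 0.0777, 0.0997 and 0.0878 across 8770 genes, against a mean of -0.0442 between different mice. Centring on the group means largely sets the value between mice once those within a mouse are given. The contrast is therefore no separate evidence for the pairing. Intervals (95%) are Wald intervals from the edgeR standard errors with a t quantile of 2.07 (22.6 degrees of freedom, of which 20.6 are prior ones borrowed from other genes). Equivalence used 2 one-sided tests at margins of 1.5-fold and 2-fold. Printed CPM are TMM-scaled, except for values of 3 counts, which use library totals. Rate ratios of genes not tested are exact and conditional, on counts summed per group. The study's methods name DESeq2 and state no design, so DESeq2 1.42.0 was tried with and without the block. Also tried were limma-voom (3.58.1), other scalings, filters and gene sets, and fits without each mouse or library. Thinning, scaling to library totals, leaving out Rn45s, and a minimum of 100 counts for genes called in stimulated cells were chosen after seeing the data.

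The members, gene groups and tests were chosen with earlier results of these data known. The list of mitochondrial genes was widened to the spelling of the table (mtCytb) after symbols were seen. Named genes are Lair1, genes that the study names or measured as protein, the 3 most abundant members of each group, the 5 smallest p-values in each direction, typical genes of each count class, the 5 narrowest intervals, and the 5 highest and 5 lowest stimulated effects with the same direction in 3 mice. Others were chosen after their values were seen. Of 14323 symbols, 13424 matched GENCODE by name and 96 RefSeq names and 742 RefSeq synonyms. The variance between replicates was 3.68 to 4.55 times that of sampling, so no libraries were copies. The fits were tested on simulated counts, drawn with a spread between replicates set by expression level alone. Such counts cannot show how well the intervals cover genes whose mice differ by more. Some genes that these rules name are not reported here.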

Additional observations from a re-analysis of the deposited data

Results flagged for a closer look

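The effect of anti-LAIR-1 was set against its effect in the stimulated libraries of the same mice by the interaction of both antibodies (edgeR quasi-likelihood test over all 12 libraries with the mouse as a block). The test called 218 of 9223 genes, 193 with a more positive effect under anti-CD3. Of the genes named by rule and reported here 16 passed it, and each value below is the log2 effect with anti-CD3 minus that without. All 16 are listed for passing the test, so their differences tend to be overstated. Lef1 and Pecam1 were also named by the study from the stimulated libraries of these data.

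In homing, adhesion and naive-state genes the difference was 1.92 for S1pr1, 0.91 for Pecam1, 0.69 for Klf2, 0.69 for Tmsb10 and 0.64 for Lef1. It was 0.57 for Cd3g, of the antigen receptor, and 0.53 for Csk. Slfn1, Txnip and Zfp386 had 0.83, 0.71 and 0.84. Of genes chosen for their stimulated effect, whose difference is overstated for that reason too, Smpdl3a had 1.92, Gm11346 1.86, Cd55 1.68 and Cish -1.90. Xcl1 and Nkg7, an effector chemokine and a granule membrane protein, each had -0.74. The isotype libraries differ in depth from the anti-LAIR-1 libraries in the unstimulated arm, and its part in these differences was not tested.

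Groups of 3 libraries were too small to look for single libraries that stand apart.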

How the results depend on the processing

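Without the replicate block edgeR gave 0 calls, as did DESeq2 with and without the replicate block, the 3 other scalings and the fit over all 12 libraries. Calls appeared with limma-voom (1, Rn45s), no filter on low counts (9), a robust prior (3), no mitochondrially encoded genes (3), thinned libraries (1), 1 mouse left out (10 to 15) and 1 library left out without the block (0 to 1). The cause was not tested. Genes at an unadjusted p-value under 0.05 fell to 69 (DESeq2, block) and 213 (DESeq2, no block). The median margin of error of 0.391 became 0.5812 and 0.467 with the same DESeq2 fits, 0.5342 with no filter, 0.366 with at least 10 counts in every library, 0.4145 with thinned libraries and 0.4422 to 0.4826 with a mouse or library left out. With no filter and with the stricter filter other genes enter the median. Intervals within 1.5-fold fell to 3062 genes with DESeq2 and the block. The share of stimulated effects outside the unstimulated intervals (88.4%) was 78.1% with effects read in the mouse left out and 93.2% for genes with at least 100 counts. None of these shares counts the error of the stimulated effect.

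Over 7 results and 24 alternatives 120 of 148 values kept within their limits of change. For 94 named genes, 2186 of 2236 values moved by no more than the spread between mice. Some alternatives (a robust prior, protein-coding genes only) left the fold changes as they were by construction, and a rescaling moves them little. The counts are therefore no measure of how robust the results are. Above 300 counts, at least 97.3% of the genes of each count class had intervals within 2-fold in each of 16 fits over all mice. From 10 to 30 counts, where counting error was 57.1% of the variance in the median gene, 40.5% did in the fit used for the results.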
